A study of Oryza sativa Indica Group with 4 samples.

Results

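EGY1, EGY2 and EGY3 form a small family of plastid membrane proteins related to site-2 proteases, and their transcripts were compared here between rice panicle primordia of high and low grain number. The members were chosen by name, as the probe sets paired in the array's annotation with genes that carry the symbol or synonym EGY1, EGY2 or EGY3 in NCBI's gene table. This gave 3 genes of the 17905 that have a probe set of their own here, each with 1 probe set. EGY3 (LOC4333985) was picked out because it was lower in the high grain number bulks, with EGY1 (LOC4334387) and EGY2 (LOC4325486) as its relatives. The contrast between the bulks thus helped to choose the family, and the values of its 3 genes in that contrast are given as a description, with no test.

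The RNA came from panicle primordia of Oryza sativa (Indica Group) at the stage the submitters number 0. The high grain number samples were bulks of 10 recombinant inbred lines (lines made uniform by selfing over generations, here from a cross of 2 cultivars) whose panicles bore many grains, and the low grain number samples were bulks of 10 lines whose panicles bore few. Each kind of bulk was measured on 2 Affymetrix rice arrays, which the submitters call biological replications. No treatment, transgene or mutant allele is named for either kind of bulk. A bulk gives 1 value for its 10 lines, so the lines' own values are not seen, and fewer cells of a type cannot be told apart from less RNA per cell.

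Site-2 proteases are metalloproteases that cut their substrates within the membrane, and plants have plastid relatives of them. In Arabidopsis, EGY1 is needed for chloroplast development, and its loss gives yellow-green plants with few light-harvesting complexes. Arabidopsis EGY2 is a thylakoid protease linked to photosystem II. Arabidopsis EGY3 lacks the zinc-binding motif of an active metalloprotease, so it is called protease-like, and its transcript is known to increase under heat and salt stress.

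As deposited, the arrays had trimmed mean signals (2% trimmed at each end) of 39.0 and 40.5 for high grain number and of 36.5 and 55.3 for low grain number, so intensities were quantile normalised. Differences are high minus low on the log2(intensity + 16) scale, on which changes of dim probe sets come out too small. SE is limma's moderated standard error, which draws each probe set's spread towards that of other probe sets of like brightness. The number of arrays limits the precision, since each group's spread rests on 2 values. Of the young panicle markers, 7 were on the array and 6 bright enough to be tested. Their log2 differences ran from -0.31 to 0.51, with 3 positive and 3 negative. OSH1, a meristem homeobox gene at the lower end, had intensities of 527 and 605.5 in the high bulks, against 763 and 650.1 in the low bulks. RFL, at the upper end, had 69.2 and 177.6 in the high bulks, against 77.0 and 71.5 in the low bulks. FZP, a spikelet meristem regulator, was at 1.3 or less on every array.

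EGY3 was the family member with the large difference. Its quantile normalised intensity was 17.8 and 39.3 on the high grain number arrays, against 186.6 and 109.9 on the low grain number arrays. Both high arrays lay below both low arrays, and the dimmer low array was 2.79 times as bright as the brighter high array. The group means were 28.6 ± 15.2 (SD, n = 2) in the high bulks and 148 ± 54.2 (SD, n = 2) in the low bulks. On the log2 scale the difference was -1.89 ± 0.29 (SE), which is 3.69-fold lower in the high bulks, while the plain ratio of the mean intensities was 5.19, because adding 16 compresses the low values of the high bulks.

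The order of the EGY3 values did not rest on the scaling. As deposited, the signals were 16.2 and 36.2 on the high arrays, against 157.8 and 144.0 on the low arrays. Within each array, EGY3 was brighter than 68.6% and 77.1% of probe sets in the high bulks, and than 91.4% and 87.1% in the low bulks. These ranks, which need no scaling between arrays, place both low arrays above both high arrays too.

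The spread within each kind of bulk was also wide for EGY3. High grain number replicate 2 was 2.21 times as bright as replicate 1, and low grain number replicate 1 was 1.70 times as bright as replicate 2. On the log2 scale the SD was 0.50 in the high bulks (n = 2), where the median over all tested probe sets was 0.156. It was 0.48 in the low bulks (n = 2), where that median was 0.137. The gap between the groups therefore has a sizeable error of its own, although no array crossed it. The moderated SE of 0.29 borrows from the smaller spread of other probe sets, so it is less than these SDs alone would give.

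**Figure D1:**
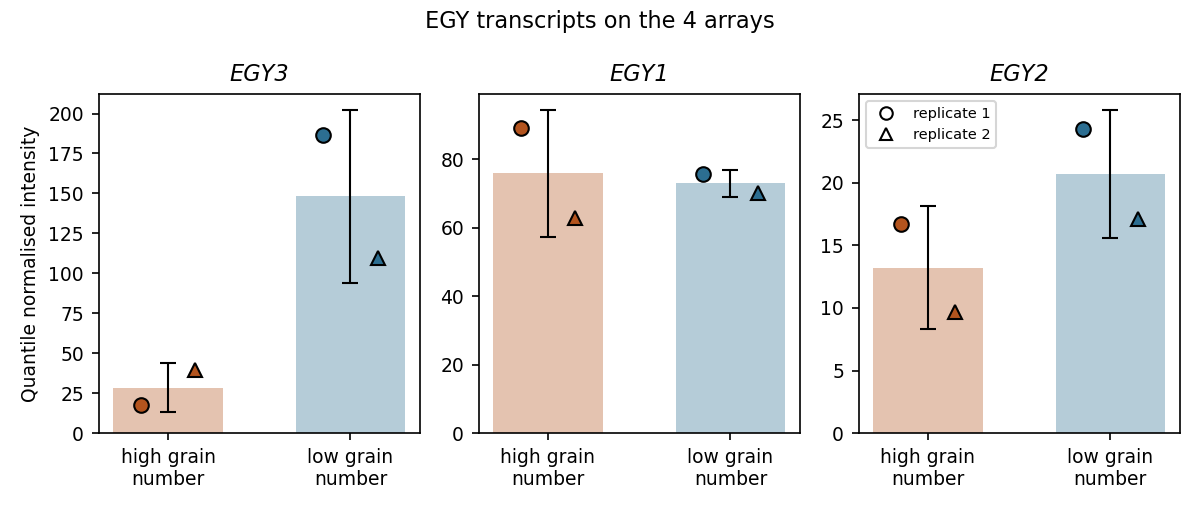
Quantile normalised intensity (linear, from 0, with a scale of its own in each panel) of EGY3, EGY1 and EGY2 in high (left) and low (right) grain number bulks, where bars are means of 2 arrays, error bars are SD, circles are replicate 1 and triangles replicate 2. EGY3 lies at 17.8 and 39.3 in the high bulks and at 186.6 and 109.9 in the low bulks, while the EGY1 groups overlap.

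EGY1, the relative whose Arabidopsis counterpart is needed for green plastids, had nearly the same level in both kinds of bulk. Its intensity was 89.0 and 62.8 on the high arrays, against 75.7 and 70.2 on the low arrays. The low values lay between the high ones, so the groups overlapped completely. The means were 75.9 ± 18.5 in the high bulks, against 72.9 ± 3.94 in the low bulks (SD, n = 2 each), and the log2 difference was 0.03 ± 0.22 (SE), or -0.14 with the deposited scaling. As deposited, EGY1 was at 81.6 and 57.4 on the high arrays and at 65.2 and 91.7 on the low arrays, again with overlap.

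EGY2, the counterpart of the photosystem II-linked protease, had low intensities on every array, although it was brighter than 60.5% to 72.1% of probe sets. Its intensity was 16.7 and 9.7 on the high arrays, against 24.3 and 17.1 on the low arrays. The groups did not overlap, but the brighter high array and the dimmer low array were nearly equal. The means were 13.2 ± 4.91 in the high bulks, against 20.7 ± 5.13 in the low bulks (SD, n = 2 each), with a log2 difference of -0.33 ± 0.22 (SE). These intensities are close to the 16 added to each value, which pulls the difference towards 0. The deposited signals were 15.2 and 10.2 on the high arrays, against 21.0 and 21.3 on the low arrays.

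The 3 genes did not vary together from array to array. EGY1 and EGY2 were both brighter on replicate 1 than on replicate 2 in each kind of bulk after normalization, but as deposited only in the high bulks. EGY3 had that order in the low bulks and the opposite one in the high bulks. To set EGY3 against its relatives within each array, the mean log2 value of EGY1 and EGY2 was subtracted from that of EGY3, which gave -0.79 and 0.30 on the high arrays, against 1.74 and 1.24 on the low arrays. The difference between the groups in this quantity was -1.74, so nearly all of the EGY3 difference remained after its relatives were subtracted. The subtraction removes whatever the 3 probe sets share on an array, and the result is a change relative to EGY1 and EGY2, not a ratio of transcript levels.

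Among all 34316 tested probe sets, 0.568% passed the threshold of 0.05 in limma's two-sided test after Benjamini-Hochberg adjustment, and 0.414% passed and were lower in the high bulks. Of the 3 EGY probe sets, EGY3 was among those past the threshold, a call that its choice used. A log2 difference as low as that of EGY3 or lower was found for 56 probe sets (0.163%), and EGY2 held rank 3171 and EGY1 rank 18388 when differences were ordered from the lowest. Groups that do not overlap were common, at 37.1% of tested probe sets, of which those lower in the high bulks made up 17.6% of all tested. EGY3 and EGY2 were both lower with no overlap, and little can be read from that order alone.

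Other proteases of the plastid and their relatives offer a comparison, although not all members of the list belong to the same compartment. The list held FtsH proteases, which are ATP-dependent membrane metalloproteases of plastids and, for some members, of mitochondria, and the CLPC and CLPD chaperones that feed the Clp protease of the plastid stroma. Of its 15 genes, 14 were on the array and 13 were tested. None passed the threshold in either direction (limma, 0 of 13, and 0 at an unadjusted p under 0.05, a level that 8.24% of all tested probe sets reached). Their log2 differences ran from -0.22 to 0.28 with a median of 0.06, beside a median of 0.01 over all tested probe sets. With the deposited scaling these medians were -0.12 and -0.07, so the list has no settled direction.

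Among the FtsH genes, FTSH4 (LOC4326310) had intensities of 205.0 and 238 in the high bulks, against 125.5 and 253 in the low bulks, giving a log2 difference of 0.28 ± 0.28 (SE). FTSH1 (LOC4342113) had 185.7 and 194.8 in the high bulks, against 154 and 173 in the low bulks, giving a log2 difference of 0.20 ± 0.20. FTSH8 (LOC4339002) had a log2 difference of -0.22 ± 0.22 and FTSH2 (LOC4341796) one of -0.20 ± 0.22. These are the members with the smallest p in each direction, and each differs from 0 by about 1 SE. FTSH6 was too dim to be tested, with intensities of 4.5 and 0.6 in the high bulks, against 0.5 and 2.5 in the low bulks.

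The signal peptide peptidase-like (SPPL) proteases also cut within membranes but use aspartate residues instead of zinc. All 5 SPPL genes were tested, and 0 passed (limma, with 0 at an unadjusted p under 0.05). Their median log2 difference was 0.03 (-0.03 with the deposited scaling), with a range of -0.04 to 0.32. SPPL5 (LOC4342150) was at the upper end with 0.32 ± 0.25 (SE) and SPPL4 (LOC4331193) had 0.20 ± 0.20. SPPL1 (LOC4348538) had -0.04 ± 0.20 and SPPL3 (LOC4324348), a dim probe set at 5.1 to 6.1 on all arrays, had -0.02 ± 0.18. The differences of EGY3 (-1.89) and EGY2 (-0.33) lay below the range of both protease lists and that of EGY1 lay inside both, a position that for EGY3 follows from how it was chosen.

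Photosynthesis genes, which depend on the green plastids that EGY1 and EGY2 serve in Arabidopsis, had 0 of 13 tested members past the threshold (limma, with 1 at an unadjusted p under 0.05). The list holds 35 genes, of which 14 were on the array under a probe set paired with 1 gene. Their median log2 difference was 0.06 (-0.02 with the deposited scaling) and the range was -0.41 to 0.48. CHLD (LOC4334537) and CHLH (LOC4332690), which encode subunits of the magnesium chelatase of chlorophyll synthesis, had log2 differences of 0.48 ± 0.22 and 0.42 ± 0.21 (SE). PSAG (LOC4337812), a photosystem I subunit, had -0.41 ± 0.20, and RCA (LOC4351224), the activase of Rubisco, had -0.33 ± 0.22. The summed intensity of the 3 green tissue markers on the array (RBCS, CAB2R and RCA) was 2499 and 1998 in the high bulks, against 2578 and 2159 in the low bulks, with overlap. CAB2R made up most of this sum, at 2410 and 1896 in the high bulks, against 2479 and 2073 in the low bulks. RBCS, at 40.1 and 64.7 in the high bulks, against 34.7 and 33.6 in the low bulks, differed in the opposite direction to RCA.

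In Arabidopsis, EGY3 is tied to reactive oxygen in the chloroplast and to a plastid copper-zinc superoxide dismutase, so scavenging genes were listed too. Of 14 tested, 0 passed (limma, with 1 at an unadjusted p under 0.05). Their median log2 difference was 0.01 (-0.15 with the deposited scaling), with a range of -0.67 to 0.23. The member at the lower end was SodCc2 (LOC4344210), a cytosolic copper-zinc superoxide dismutase, which had intensities of 136.7 and 201 in the high bulks, against 240.3 and 313 in the low bulks, giving a log2 difference of -0.67 ± 0.23 (SE; adjusted p = 0.425 in limma). APX7 (LOC4335896), a chloroplast ascorbate peroxidase, had -0.44 ± 0.20. APX5 (LOC4351664) had 0.23 ± 0.21 and APX2 (LOC4344397) had 0.12 ± 0.14. The plastid superoxide dismutase sodCp (LOC4346329), named after its values were seen, had 238 and 225 in the high bulks, against 228 and 223.5 in the low bulks, giving a log2 difference of 0.03 ± 0.19.

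Of the lists of proteases, photosynthesis, scavenging and heat shock genes, heat shock genes were the one with members past the threshold. All 24 tested members had a negative difference, and the median was -1.02, beside 0.01 over all tested probe sets. Some were near 0, among them HSP81-3 (-0.01 ± 0.12), Hsp90 (-0.02 ± 0.13) and HSP82 (-0.10 ± 0.13, SE). Of the 24, 5 passed, all of them lower in the high bulks (limma), where 0.414% of all tested probe sets were lower and past the threshold. HSP18.1 (LOC4332361), a small heat shock protein, had intensities of 491 and 274 in the high bulks, against 3456 and 2990 in the low bulks, giving a log2 difference of -3.07 ± 0.23 (SE). HSP17.8 (LOC4330496), of the same class, had 98.4 and 215 in the high bulks, against 1054 and 673 in the low bulks, giving a log2 difference of -2.40 ± 0.31. HSP17.8 had the same order of arrays as EGY3, with high grain number replicate 1 lowest and low grain number replicate 1 highest, while HSP18.1 was lowest on high grain number replicate 2. Of the 24 heat shock genes, 14 had the full array order of EGY3 and 10 did not, beside 4.74% of all tested probe sets that had it. A list that is lower in the high bulks has that order more often by its direction alone, so the count is a description. The part of a shared heat response in the EGY3 difference was not tested. Whether the list's count holds depends on single arrays, since leaving out low grain number replicate 1 gave 1, leaving out replicate 2 of the same bulk gave 2, and leaving out high grain number replicate 2 gave 14.

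**Figure D2:**
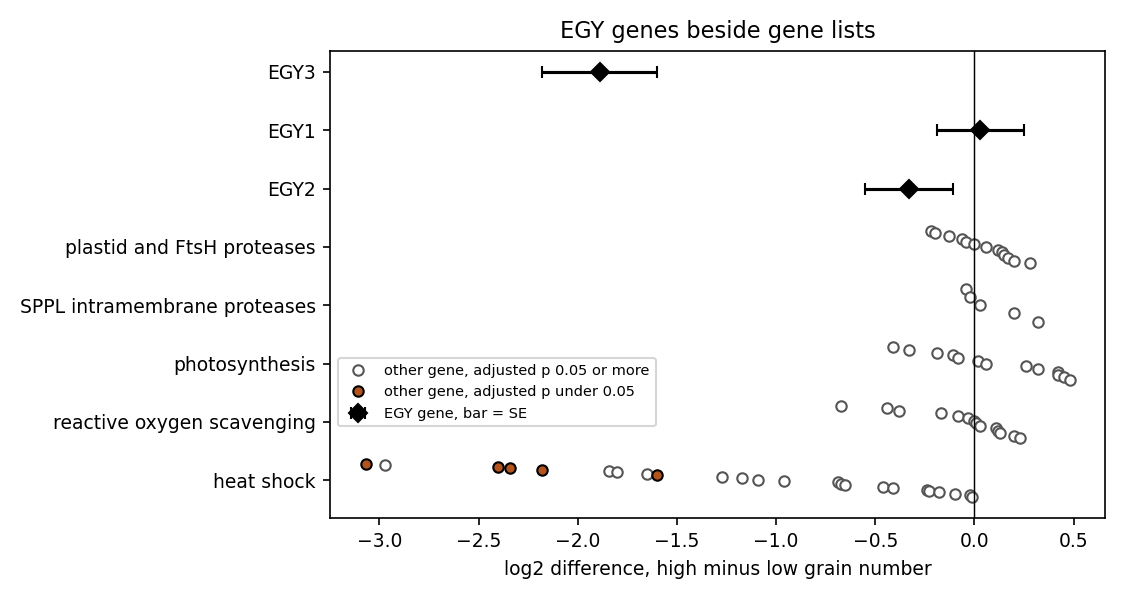
Log2 difference (high minus low grain number, log2(intensity + 16) scale) of the EGY genes (diamonds, error bars SE) and of each tested gene in 5 lists (circles, filled where the limma adjusted p was under 0.05). EGY3 at -1.89 lies outside the range of the protease (-0.22 to 0.28 and -0.04 to 0.32), photosynthesis (-0.41 to 0.48) and scavenging (-0.67 to 0.23) lists and within that of the heat shock list (-3.07 to -0.01).

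Some markers of other tissues were, like EGY3, lower on both high arrays. The 5 secondary wall genes were CESA4, CESA7, CESA9 and the 2 genes that carry the name BC1. Of these, 3 (CESA4, CESA7 and the BC1 gene LOC4333114) were past the threshold and lower in the high bulks. Over all tested probe sets, 0.414% were. CESA9 (-0.83 ± 0.21, limma adjusted p = 0.173) and the other BC1 gene, LOC4347540 (0.17 ± 0.21), did not pass. The summed intensity of the 5 genes was 78.9 and 104.6 in the high bulks, against 357 and 438 in the low bulks. Of 3 tapetum markers on the array, RTS passed and was lower in the high bulks, although its mean met the filter on dim probe sets only through the low bulks. C6 (-2.84 ± 0.65, limma adjusted p = 0.115) and TDR (0.19 ± 0.22) did not pass, and the sum was 85.5 and 338 in the high bulks, against 919 and 1585 in the low bulks. RTS was near 0 in the high bulks, at 1.5 and 0.9, against 224 and 553 in the low bulks. The part of such tissue in the EGY3 difference was not tested.

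The 5 genes whose profile over the 4 arrays was closest to that of each EGY gene were found by the Euclidean distance between log2 values, each taken as a deviation from the probe set's own mean. For EGY3 the closest was LOC4338633, which carries the synonym CML15 of a calmodulin-like protein, a class of calcium sensors. It had intensities of 270.4 and 451 in the high bulks, against 1393 and 910 in the low bulks, at a distance of 0.249. LOC4328933, LOC4334553, LOC4331910 and LOC4326386 followed, up to a distance of 0.404. The log2 differences of the 5 ran from -1.99 to -1.64. Like EGY3, each was lowest on high grain number replicate 1 and highest on low grain number replicate 1. This order, like the size of the differences, follows from choosing the 5 by closeness to EGY3.

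For EGY1 and EGY2 the closest genes lay far nearer, at distances of 0.021 to 0.030 and of 0.022 to 0.033, since many probe sets have small differences. The closest to EGY1 was LOC4348870, with the synonym CYN for cyanase, which breaks down cyanate. It had 373 and 276 in the high bulks, against 324 and 309 in the low bulks. LOC9267815, LOC4345873 (SNRK1B, a kinase of the energy-sensing SnRK1 family), LOC4327889 and LOC4324891 came next. The closest to EGY2 were LOC4340543, LOC4330280, LOC4327127, LOC4346604 and LOC4333099, with log2 differences of -0.35 to -0.33. With 4 arrays such a likeness is a description only, and none of the listed heat shock, protease, photosynthesis or scavenging genes was among these 15 closest genes.

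**Figure D3:**
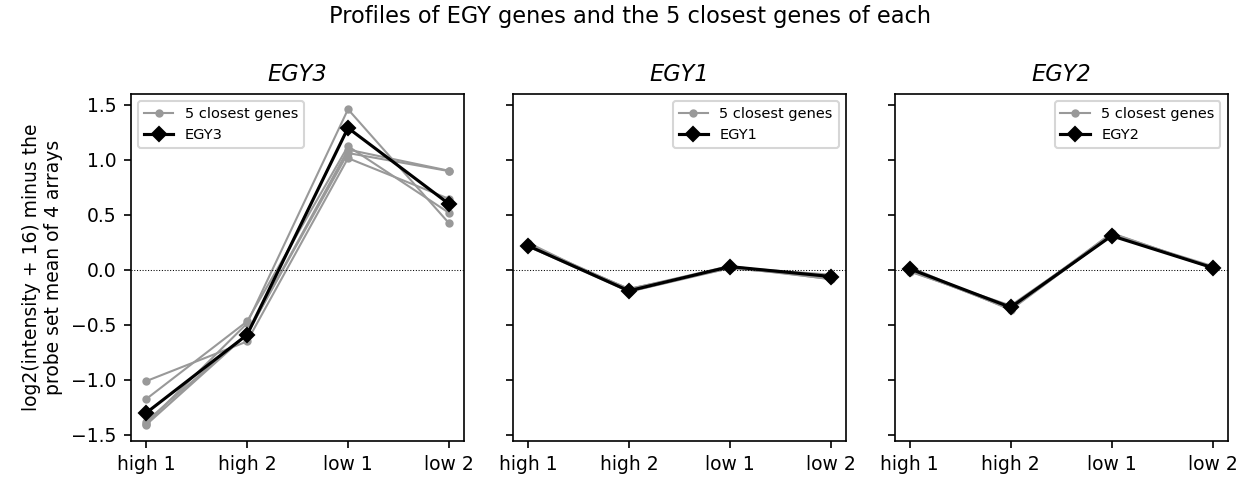
Profiles of EGY3, EGY1 and EGY2 (black) and of the 5 closest genes of each (grey) over the 2 high and 2 low grain number arrays, as log2(intensity + 16) minus the probe set's mean over the 4 arrays. EGY3 runs from -1.30 on high grain number replicate 1 to 1.29 on low grain number replicate 1, while EGY1 stays between -0.19 and 0.22 and EGY2 between -0.34 and 0.31.

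Lines selected for a trait may have inherited the same parental segments, so the genes next to each EGY gene in the gene table were examined, 5 tested genes on each side, a step added after the EGY values were seen. The 10 neighbours of EGY3 had log2 differences between -0.17 and 0.21, with a median of 0.07, and 3 of the 10 were negative. None passed the threshold (limma, 0 of 10, and 0 at an unadjusted p under 0.05). The nearest tested gene on one side, LOC4333983, had 0.09 ± 0.20 (SE), and the nearest on the other, LOC4333986, had -0.12 ± 0.29. EGY3 was chosen for a low value, so neighbours nearer to 0 are no surprise, and the part of inherited segments in its difference was not tested. The neighbours of EGY1 ran from -0.49 to 0.22 and those of EGY2 from -0.38 to 0.24, with 0 of 10 past the threshold in each case (limma, 1 and 0 at an unadjusted p under 0.05). Genes with no tested probe set lie between these neighbours, and the gene order is that of a Japonica assembly.

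**Figure D4:**
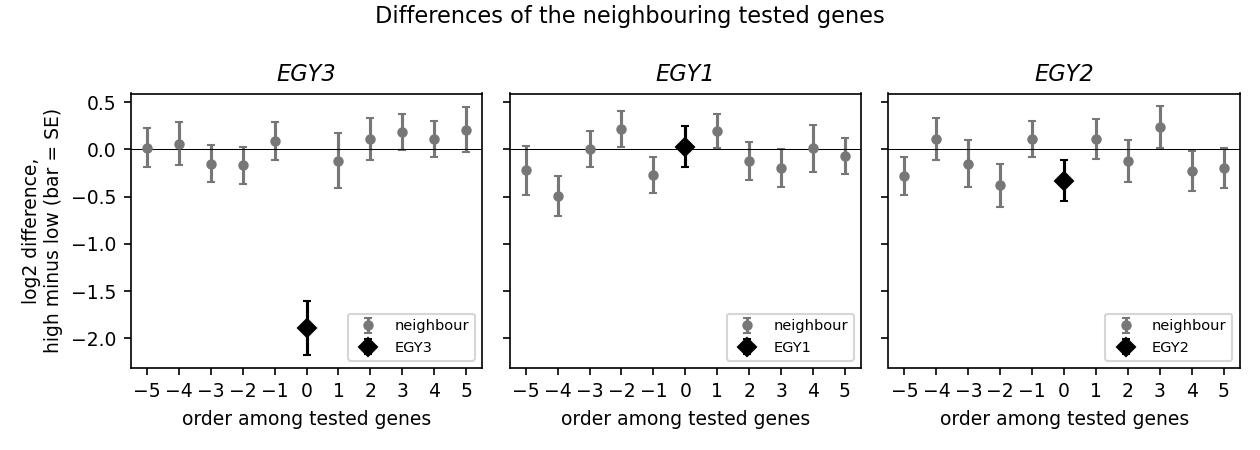
Log2 difference (high minus low grain number) of EGY3, EGY1 and EGY2 (diamonds at 0) and of the 5 tested genes on each side in gene order (circles), with SE as error bars. The neighbours of EGY3 lie between -0.17 and 0.21, and EGY3 itself lies at -1.89.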

How the data were processed

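Total RNA was labelled with biotin and hybridised to Affymetrix arrays, per the labels' protocols. The deposited table gives 1 linear intensity per probe set and array. The submitters' processing notes name GCOS 1.2, and its scaling is not given in the sources used here. From these values, 187 control probe sets were left out, intensities were quantile normalised and put on the log2(intensity + 16) scale, and probe sets whose mean log2 value was under the 40th percentile were dropped, which left 34316. The groups were compared by limma's lmFit and eBayes (trend on; limma 3.58.1, R 4.3.3), with p adjusted over all tested probe sets. The steps were tested on simulated data. The annotation gave 1 gene for 22436 probe sets, several for 95 and none for 34663, and symbols came from NCBI's gene table (assembly ASM3414082v1). A gene with several probe sets was taken by the brightest, except in the search for the closest genes. There it was taken by the tested probe set nearest in profile. No coordinates are given, and the start positions in the gene table were used only to order genes along chromosomes. The members and gene lists were chosen with earlier results of these data known. Lists were made by matching symbols and synonyms, and the genes named are, for each direction of a list, the 2 of smallest p. The labels do not say what the 2 replications share. The p-values therefore measure no spread beyond that between these arrays, as moderated by limma across probe sets.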

Additional observations from a re-analysis of the deposited data

How the results depend on the processing

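EGY3 stayed lower in the high bulks under all 12 alternatives. Its log2 difference was -2.39 with log2(value + 1) and -1.18 with log2(value + 64), as the added constant implies for low values, and it ran from -2.27 to -1.54 when 1 array was left out. EGY2 had -0.64 with log2(value + 1), and -0.51 to -0.17 without 1 array. EGY1 changed sign with the scaling and with the array left out (-0.14 as deposited and after median centring, -0.18 to 0.24 without 1 array). EGY3 relative to its relatives was -1.13 with log2(value + 64) and -2.31 to -1.20 without 1 array. Each gene has 1 probe set, so another probe set could not be tried.

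The counts of probe sets past the threshold were less stable. Lower probe sets numbered 142, against 233 as deposited, 332 after median centring and 91 with log2(value + 1). With no filter on dim probe sets 0 were higher and 0 lower (limma, 57194 tested, 3849 at an unadjusted p under 0.05). With the replicate number as a block, 189 were higher and 465 lower, against 53 and 142 without it. The labels do not say what a number shares, and deviations of same-numbered arrays correlated at 0.111 across probe sets. Without 1 array the ranges were 7 to 45 higher and 43 to 184 lower. The heat shock list had 11 members past the threshold as deposited, 16 after median centring, 0 with no filter, 16 with the replicate block and 1 to 14 without 1 array. The cause was not tested. The protease, photosynthesis and scavenging lists had 0 under every alternative run. Where 1 array was left in a group, its spread was taken from the other group. Signals about as low as the added 16, those of EGY2 on all arrays and of EGY3 on high grain number replicate 1, limit how well those differences are sized.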
